A study of Arabidopsis thaliana with 2 samples.

Results

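The flavonoid pathway is described here by 10 Arabidopsis thaliana genes, chosen by locus name and ordered along the pathway. They are the enzyme genes CHS, CHI, F3H, F3'H, FLS1, DFR and LDOX, the transport gene TT19 and the regulator genes MYB111 and MYB12. Reads of 8 of the 10 were listed in at least 1 library, out of 21808 loci with a read in all. Polyadenylated RNA of 10-day seedlings was sequenced in 1 library of the crwn1 crwn2 double mutant and in 1 library of WT, the wild type. CRWN1 and CRWN2 encode filament-forming proteins that line the nucleus of plant cells from inside as a lamina, and the mutant seedlings carry mutations in both genes while the WT control carries neither. The labels used here name no other allele, ecotype or treatment.

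Flavonoids are phenolic compounds that absorb ultraviolet light, colour tissues and act as signals and antioxidants. The pathway takes coumaroyl-CoA from the general phenylpropanoid route and builds a chalcone, which is closed to a flavanone and hydroxylated to dihydroflavonols. Dihydroflavonols then go either to flavonols or to anthocyanins and, in the seed coat, to proanthocyanidins. In Arabidopsis the MYB factors MYB11, MYB12 and MYB111 activate the early enzyme genes, whereas complexes of a MYB, a bHLH protein and the WD40 protein TTG1 activate the late ones. MYB12 is known to act mainly in roots and MYB111 mainly in cotyledons.

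Depth was similar in both, with 2203650 uniquely placed reads over 20701 loci in crwn1 crwn2 (median 26 per listed locus) and 2094440 over 20223 loci in WT (median 24). CRWN1 had 57 reads in crwn1 crwn2 and 1021 in WT, and CRWN2 had 9 reads in crwn1 crwn2 and 148 in WT, so both libraries matched their labels. With 1 library per genotype no difference has a replicate check, the genotypes were not tested against each other, and each interval below is an exact 95% interval that covers counting error only. Harvest, growth and library preparation cannot be told apart from genotype. In whole seedlings, a different share of cells of a type and a different amount of RNA per cell cannot be told apart either. A locus counted as measured when it reached 10 reads and an RPKM (reads per 1000 bases of model and 1000000 library reads) of 1 in at least 1 library. It was called when the ratio of RPKM + 1 was at least 2-fold and the interval of the read ratio excluded equality.

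All 7 flavonoid genes that were measured were called higher in crwn1 crwn2, none was lower, and the remaining 3 could not be assessed. Over the 10 genes there were 443 reads in crwn1 crwn2 and 83 in WT, which is 201 per 1000000 library reads in crwn1 crwn2 and 39.6 in WT, 5.07-fold more for equal library totals (interval 4.005 to 6.49). Each of the 8 listed genes had more reads in crwn1 crwn2. Across all 14393 measured loci, 6.34% were called higher and 4.53% lower. By count, 912 were higher and 652 lower, a split that became 691 higher and 826 lower after TMM scaling. Without that scaling, 8550 of the 14393 log2 ratios lay above 0 and 5843 below. The 2 genes measured in both libraries, CHS and CHI, were both called, against 4.11% of loci measured in both. The other 5 reached the minimum through the crwn1 crwn2 library only, a class in which 33.6% of loci were called higher, so their count has a high background. The median log2 ratio of RPKM + 1 was 1.98 over the 7 measured genes and 1.66 over the 8 listed ones, beside 0.12 over all measured loci.

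**Figure D1:**
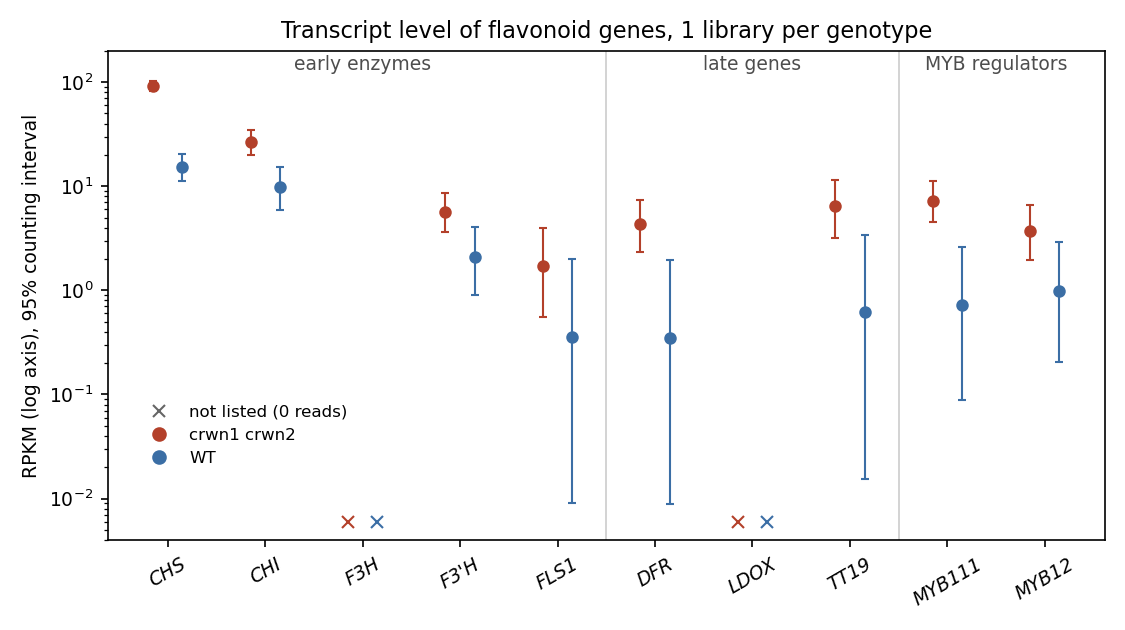
Transcript levels of the 10 flavonoid genes in RPKM on a log axis, with crwn1 crwn2 in red to the left of WT in blue, points for the single library of each genotype and bars for exact Poisson 95% intervals. CHS has the top point in both libraries, at 92.5 in crwn1 crwn2 and 15.4 in WT, and F3H and LDOX, marked by crosses, are listed in neither.

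CHS (AT5G13930, chr5:4488688-4490264, TAIR10, forward strand) encodes chalcone synthase, the first committed enzyme of the pathway. It had 304 reads in crwn1 crwn2 and 48 in WT, or 92.5 RPKM in crwn1 crwn2 and 15.4 RPKM in WT. The read ratio was 6.02 (4.43 to 8.34), and CHS ranked 53rd from the top of 14393 measured loci by log2 ratio, at 2.51. Reads covered 93.9% of the model in crwn1 crwn2 and 75.7% in WT, so they were spread over the transcript in both libraries. CHS alone made up 68.6% of the reads of the 10 genes in crwn1 crwn2 (exact binomial interval 64.1 to 72.9%) and 57.8% in WT (46.5 to 68.6%).

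CHI (AT3G55120, chr3:20430114-20431470, reverse strand) encodes chalcone isomerase, which closes the chalcone ring. It had 54 reads in crwn1 crwn2 and 19 in WT, or 26.3 RPKM in crwn1 crwn2 and 9.75 RPKM in WT, a read ratio of 2.70 (1.58 to 4.83). The read ratio of CHI lay below that of CHS as a point estimate: the CHS ratio was 2.22 times the CHI ratio (1.14 to 4.21). That was the only pair of 28 pairs of listed genes whose interval excluded equality, and with an interval widened for 28 pairs it no longer did (0.774 to 5.93). At this depth the sizes of the differences of the 8 genes could therefore not be ranked.

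CHS and CHI also share a short sequence, shown here because MYB factors of the flavonol type are known to bind AC elements of this kind. In the 250 bases before each model's start, both strands were searched for the AC elements ACCTACC (AC-I), ACCAACC (AC-II) and ACCTAAC (AC-III) and for the G-box CACGTG, to which bZIP and bHLH factors bind. The motifs do not overlap one another by their letters in any stretch below. AC-I was found before CHS and before CHI, that is in 2 of 8 listed genes and in 1.23% of 21677 such windows of nuclear loci. The stretches of 30 bases below run 5′ to 3′ on the gene's own strand, from the RefSeq TAIR10.1 genome, with the motif in capitals. They lie at chr5:4488607-4488636 on the forward strand for CHS and at chr3:20431498-20431527 on the reverse strand for CHI, where the AC element starts 70 and 46 bases before the start of the model.
CHS: ccgtccatctaACCTACCacactctcatct
CHI: taactattgctACCTACCcttctctcttct
CHI also held a G-box that starts 88 bases before the start (chr3:20431541-20431570, reverse strand).
CHI G-box: aaaacgaaagtaCACGTGcttacacatcca
RefSeq places the start of CHS 212 bases and that of CHI 127 bases further upstream than the deposited models do, so all 3 matches lie inside the RefSeq transcripts.

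F3'H (AT5G07990, chr5:2560394-2563109, forward strand) encodes the cytochrome P450 that adds the 3′ hydroxyl group of quercetin and cyanidin. It had 23 reads in crwn1 crwn2 and 8 in WT, or 5.69 RPKM in crwn1 crwn2 and 2.08 RPKM in WT, and its read ratio was 2.73 (1.18 to 7.07). These values put F3'H close to CHI in the size of the difference, at a lower level. FLS1 (AT5G08640, chr5:2803958-2805447, forward strand), the main flavonol synthase gene, had 5 reads in crwn1 crwn2 and 1 in WT, or 1.70 RPKM in crwn1 crwn2 and 0.358 RPKM in WT. Its read ratio of 4.75 had an interval of 0.532 to 225, it did not reach 10 reads, and a difference was not detectable at this depth. Neither gene held any of the motifs in its window.

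F3H (AT3G51240), the gene of the flavanone hydroxylase that acts after CHI, was listed in neither library and therefore counts as 0 reads in both. LDOX (AT4G22880), the gene of the enzyme that makes anthocyanidins after DFR, was likewise listed in neither. An absent locus is no measure of expression here, because a read that matches several models of 1 locus seems to be left out of the counts. RefSeq annotates 2 transcripts for F3H and 3 for LDOX, whereas all 7 measured genes have 1. Over nuclear protein-coding loci, the median share of the model covered by reads was 68.4% in crwn1 crwn2 and 63.6% in WT at listed loci with 1 RefSeq transcript. It was 19.3% in crwn1 crwn2 and 17.1% in WT at loci with 2, and 8.85% in crwn1 crwn2 and 8.04% in WT at loci with 3 or more. FLS1 also has 2 RefSeq transcripts, and reads covered 13.6% of it in crwn1 crwn2 and 3.67% in WT. Still, 87.2% of loci with 2 transcripts and 86.2% of those with 3 or more were listed with at least 1 read, against 68.6% of loci with 1 transcript. What kept F3H and LDOX from being listed was not tested. Strand is not stated, so reads of overlapping genes cannot be told apart. CHS, F3H and TT19 overlap 1 further RefSeq gene each, and these had 0 counted reads in crwn1 crwn2 and at most 1 in WT. Such counts are no measure of expression for these neighbours either, for the reason given above. Whether reads of the neighbours were counted at CHS, F3H or TT19 was not tested.

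The late genes DFR and TT19 were weakly expressed in crwn1 crwn2 and had a single read each in WT. DFR (AT5G42800, chr5:17164141-17165918, reverse strand) encodes dihydroflavonol reductase, the entry to anthocyanins. It had 13 reads in crwn1 crwn2 and 1 in WT, or 4.34 RPKM in crwn1 crwn2 and 0.352 RPKM in WT, a read ratio of 12.4 (1.86 to 525). The 13 reads covered 464 bases and so came from at least 10 different positions, given 49 bases per read, so at least that many were not copies of one another. TT19 (AT5G17220, chr5:5658460-5659386, forward strand) encodes a glutathione S-transferase needed to carry anthocyanins and proanthocyanidin precursors to the vacuole. It had 11 reads in crwn1 crwn2 and 1 in WT, or 6.42 RPKM in crwn1 crwn2 and 0.614 RPKM in WT, a read ratio of 10.5 (1.52 to 450). Its 11 reads came from at least 8 positions.

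Summed over DFR, LDOX and TT19 there were 24 reads in crwn1 crwn2 and 2 in WT (ratio 11.4, 2.83 to 99.6). The 5 early genes CHS, CHI, F3H, F3'H and FLS1 had 386 reads in crwn1 crwn2 and 76 in WT (4.83, 3.77 to 6.26). The late ratio was 2.36 times the early ratio with an interval of 0.566 to 21.0, so a difference between the late and early genes was not detectable. Without CHS the early genes had 82 reads in crwn1 crwn2 and 28 in WT, a ratio of 2.78 (1.79 to 4.44).

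DFR held a closely spaced group of motifs, shown because it combines both kinds. A G-box started 128 bases and another 105 bases before the start, with AC-II on the opposite strand between them. The stretch lies at chr5:17166017-17166046 on the reverse strand, and RefSeq places the start of the gene 114 bases further upstream. The first G-box therefore lies outside the RefSeq transcript, AC-II spans its start, and the second G-box lies inside it.
DFR: CACGTGcttctccGGTTGGTactCACGTGa
Windows with AC-II made up 3.15% and windows with a G-box 8.44% of all windows searched. TT19 held none of the motifs.

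**Figure D2:**
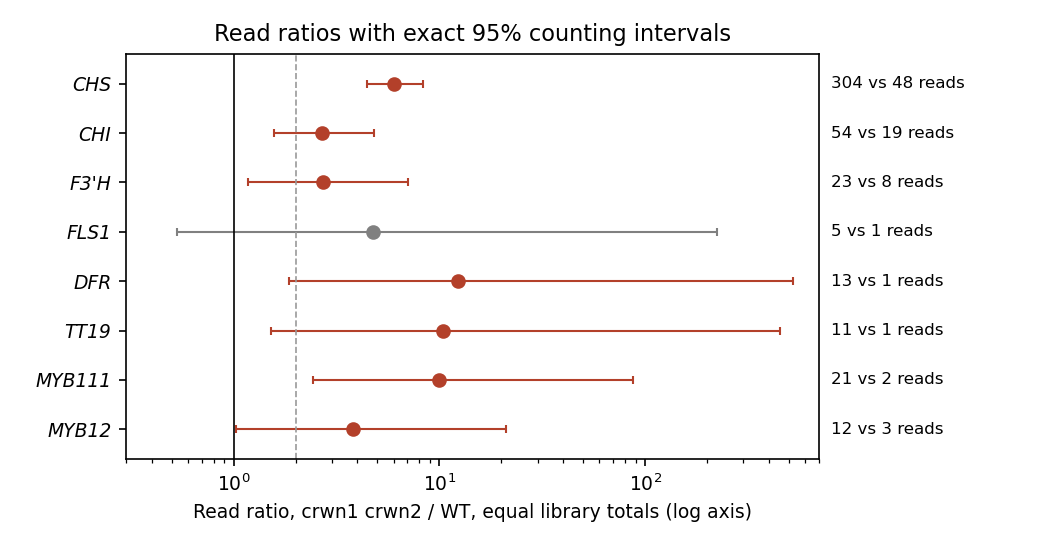
Read ratio of crwn1 crwn2 over WT for equal library totals, on a log axis, for the 8 listed genes, with exact 95% counting intervals, a solid line at equality, a dashed line at 2-fold and the reads of crwn1 crwn2 before those of WT at the right. The intervals are narrow for CHS (4.43 to 8.34) and wide for genes with 1 WT read, and FLS1, in grey, is not called.

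Both MYB regulator genes were called higher. MYB111 (AT5G49330, chr5:19998952-20001378, reverse strand) had 21 reads in crwn1 crwn2 and 2 in WT, or 7.28 RPKM in crwn1 crwn2 and 0.729 RPKM in WT, a read ratio of 9.98 (2.44 to 87.8). The 21 reads covered 56.2% of the model from at least 15 positions. MYB12 (AT2G47460, chr2:19476337-19479478, forward strand) had 12 reads in crwn1 crwn2 and 3 in WT, or 3.75 RPKM in crwn1 crwn2 and 0.986 RPKM in WT. Its read ratio of 3.80 had an interval of 1.03 to 21.0, just above equality, and MYB12 was not called after either TMM or median-of-ratios scaling. MYB11, their closest relative, was listed in neither library.

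MYB12 held a G-box starting 129 bases before its start, at chr2:19476196-19476225 on the forward strand, and MYB111 held no motif. This match lies outside the RefSeq transcript, which starts 11 bases upstream of the deposited model.
MYB12: tcttacaccacaCACGTGtcatcatctcct
In all, 3 of 8 listed genes (CHS, CHI and DFR) held an AC element, beside 6.66% of all windows, and 3 of 8 (CHI, DFR and MYB12) a G-box. A match describes letters in these windows and not a bound site.

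**Figure D3:**
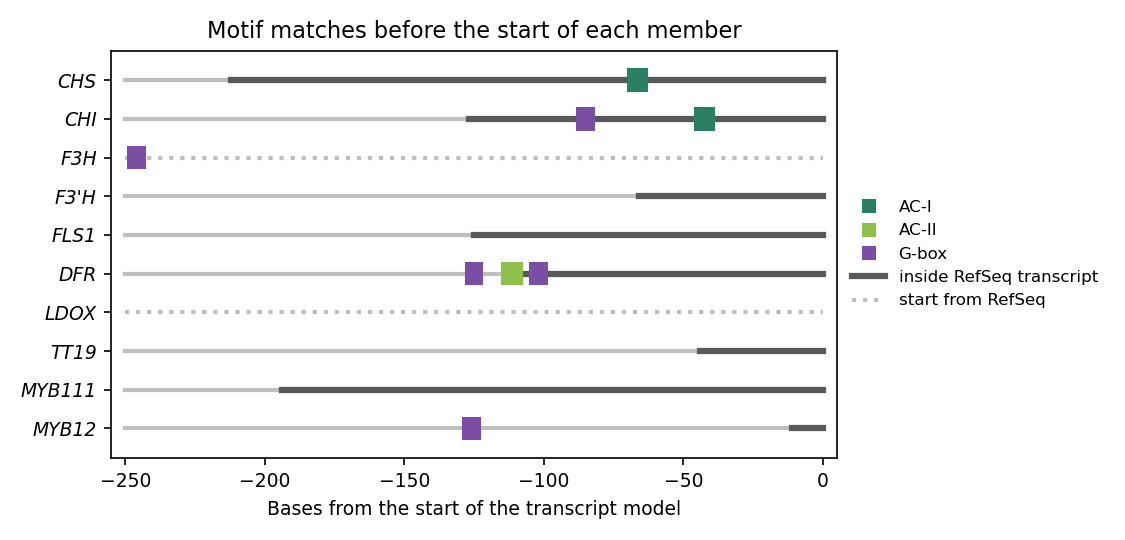
Motif matches in the 250 bases before the start of each of the 10 genes, as coloured blocks along a line whose dark part lies inside the RefSeq transcript. AC-I stands 70 bases before CHS and 46 bases before CHI, DFR has 2 G-boxes around AC-II, and for F3H and LDOX, which have no deposited model, the start is that of RefSeq, with a G-box starting 249 bases before F3H.

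By point estimate CHS had the highest level and CHI the next in both libraries, although in WT the 2 were not told apart. In crwn1 crwn2 the RPKM of CHS was 3.51 times that of CHI (2.62 to 4.78), and that of CHI 3.62 times that of MYB111 (2.15 to 6.31). From MYB111 down through TT19, F3'H, DFR, MYB12 and FLS1, neighbouring levels did not differ beyond counting error. In WT the level of CHS was 1.58 times that of CHI, with an interval of 0.909 to 2.84. The level of CHI was 4.69 times that of F3'H in WT (1.96 to 12.4), and below F3'H came MYB12, MYB111, TT19, FLS1 and DFR with no neighbours told apart.

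As a sum, genes upstream of CHS differed less than the flavonoid genes, although single genes overlapped in size. The general phenylpropanoid enzymes turn phenylalanine into coumaroyl-CoA and feed lignin and sinapate esters as well as flavonoids. Of 8 such genes 5 were measured, 2 were called higher and none lower. All 5 log2 ratios were above 0 with a median of 0.97, where 8550 of all 14393 measured loci were above 0. Beside this list and those below, 6.34% of all measured loci were called higher and 4.53% lower. PAL1, a phenylalanine ammonia-lyase gene, had 281 reads in crwn1 crwn2 and 99 in WT (log2 ratio 1.38), slightly above CHI (1.35), MYB12 (1.26) and F3'H (1.12). 4CL2, a coumarate-CoA ligase gene, had 120 in crwn1 crwn2 and 52 in WT (1.07, and 0.95 and not called after TMM scaling). C4H, the cinnamate hydroxylase gene, had 575 reads in crwn1 crwn2 and 335 in WT, a log2 ratio of 0.70 that was not called. Summed over the list, where C4H has the most reads, the read ratio was 1.87 (1.70 to 2.05). The ratio of the 10 flavonoid genes was 2.71 times as large (2.10 to 3.54), or 2.02 times without CHS (1.37 to 3.05). The set without CHS includes DFR, TT19, MYB111 and MYB12, which had few WT reads. The early genes without CHS had a ratio of 2.78 (1.79 to 4.44), and this interval overlaps that of the general phenylpropanoid list.

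Downstream genes were mixed in size. Of 8 genes that decorate or carry flavonols, 6 were measured, 2 called higher and none lower, and their log2 ratios had a median of 0.65. UGT78D1, a flavonol rhamnosyltransferase gene, had 125 reads in crwn1 crwn2 and 35 in WT (read ratio 3.39, 2.32 to 5.09). RHM1, which encodes an enzyme that makes the UDP-rhamnose used in that step, had 474 reads in crwn1 crwn2 and 195 in WT (2.31, 1.95 to 2.74). Of 7 genes that decorate anthocyanins, 5 were measured and none was called in either direction, with a median log2 ratio of 0.48. BGLU10, a glucosidase-family gene with the most reads among them, had 118 in crwn1 crwn2 and 91 in WT. None of 4 genes of the proanthocyanidin branch was measured, and AHA10, a proton pump gene, had the most reads, 2 in crwn1 crwn2 and 4 in WT.

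Among 16 further activators of the pathway and of its light control, 4 were measured. Their log2 ratios lay above 0 in 2 and below 0 in 2, around a median of 0.10. Of these 4 genes, 1 was called lower and none higher. The lower one was TTG1, with 1 read in crwn1 crwn2 and 10 in WT (read ratio 0.0950, 0.0022 to 0.668), a locus with several transcript models whose reads may be incompletely counted. TTG1 reached the minimum through the WT library only, and the share of loci called lower in that class was not computed. Outside the naming rule and chosen after their values were seen are HY5, TT8, the unlisted MYB genes, MYBL2 and C4H, as well as the kelch-repeat genes and FLS2, FLS4 and FLS5 given at the end. HY5, the bZIP factor that activates CHS in light, had 43 reads in crwn1 crwn2 and 20 in WT, a read ratio of 2.04 (1.18 to 3.67) and a log2 ratio of 0.97 that missed the 2-fold rule. TT8, the bHLH partner in the complexes that activate late genes, had 8 reads in crwn1 crwn2 and 0 in WT. The interval of its read ratio started at 1.62, and TT8 was under the minimum of 10 reads. PAP1, PAP2, MYB113 and MYB114, the MYB genes of anthocyanin control, and MYB11 were listed in neither library.

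Of 15 genes that repress the pathway or turn over its enzymes, 14 were measured, 1 was called higher and none lower, while 7 log2 ratios lay above 0 and 7 below it, around a median of -0.07. The one called was MYB4, a repressor of phenylpropanoid genes, with 103 reads in crwn1 crwn2 and 40 in WT (read ratio 2.45, 1.68 to 3.62). MYBL2, a repressor of anthocyanin genes, had 28 reads in crwn1 crwn2 and 47 in WT (0.566, 0.341 to 0.923) and was not called. Of 7 relatives of CHI and FLS1, 3 were measured and none was called, and FLS3 had the most reads, 44 in crwn1 crwn2 and 31 in WT. Across all 65 genes of these lists 37 were measured, and the median of their log2 ratios was 0.38. Of the 37, 5 were called higher and 1 lower, beside 6.34% and 4.53% of all measured loci.

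**Figure D4:**
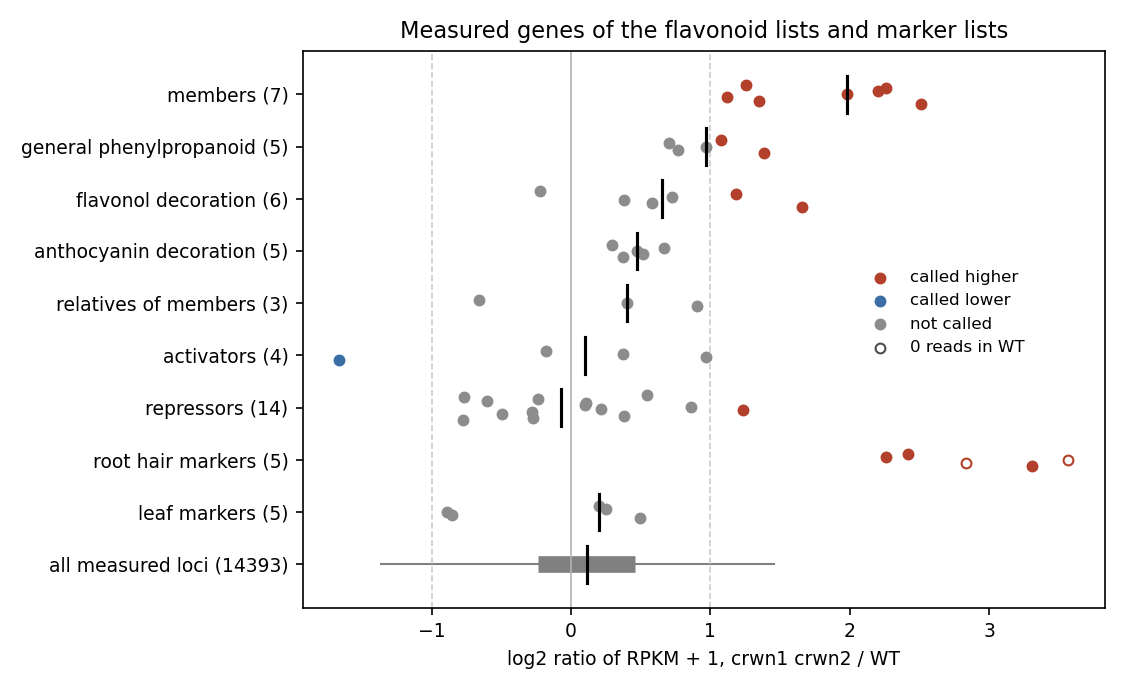
Log2 ratio of RPKM + 1, crwn1 crwn2 over WT, for measured genes of each list, with called genes in red (higher) or blue (lower), others in grey, open circles for genes with 0 WT reads, and black bars for medians of lists without such genes. The 7 flavonoid genes all lie to the right of 1, with a median of 1.98, and the lowest row gives all measured loci by median, quartiles and the 2.5th to 97.5th percentile (-1.36 to 1.46).

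Markers of root hairs moved in the same direction as the flavonoid genes. All 5 root hair markers were called higher, with a summed level of 67.6 RPKM in crwn1 crwn2 and 3.85 RPKM in WT, and EXPA7 and EXPA18 had 0 reads in WT. All 5 were measured through the crwn1 crwn2 library only, the class with 33.6% of loci called higher. None of 5 leaf markers was called, with 3 log2 ratios above 0 and a median of 0.20. Their summed level was 2599 RPKM in crwn1 crwn2 and 2968 RPKM in WT, of which CAB3 had 891 RPKM in crwn1 crwn2 and 1610 RPKM in WT. Reads covered at most 10.05% of RBCS1A, LHCA3 and RCA in either library, leaf loci with several transcript models whose reads may be incompletely counted. The floral genes AP1, AP3 and AG were listed in neither library. PI, a further floral gene, had 4 reads in crwn1 crwn2 and 3 in WT. Of 6 seed genes only OLEO2 was measured, with 3 reads in crwn1 crwn2 and 12 in WT, called lower, and SESA2, CRA1 and CRU3 were listed in neither. Like TTG1, OLEO2 reached the minimum through the WT library only. The summed level of the seed genes was 2.71 RPKM in crwn1 crwn2 and 9.20 RPKM in WT. The part of root hairs in the flavonoid values was not tested.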

How the data were processed

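RNA of 1 crwn1 crwn2 and 1 WT library of whole seedlings was enriched with oligo(dT) beads and sequenced as fragmented cDNA by Illumina HiSeq, as the labels' protocols state. The authors deposited, per the file headers, the count of uniquely placed reads of each transcript model. The deposited RPKM is that count over the model's length and the library total. The deposited coverage is the percent of a model's bases under reads. The build is TAIR10, per the submitters' processing notes. Aligner, counting rule and strand were not given in the sources used here.

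Reads and RPKM were summed per locus, and an absent locus was set to 0 reads. Ratios are crwn1 crwn2 over WT, on the log2 scale after adding 1 to RPKM, which understates differences of weakly read genes. Intervals of read ratios are exact conditional binomial (Clopper-Pearson) intervals, and intervals between 2 ratios are exact conditional odds-ratio intervals (scipy 1.17.1). PCR copies are not independent molecules, so intervals cover counting error only. The call rule was tried on simulated reads with counting error only. It called 12 of 50 loci with a true 2-fold change, 47 of 50 at 3-fold and 49 of 50 at 4-fold. Of 13973 unchanged measured loci, 101 were called. Changes were placed only on loci with more reads over both libraries than FLS1, DFR, TT19 and MYB12 had. How the rule does at such weakly read genes, or with replicate variation, was therefore not tested. The other settings tried were TMM factors (edgeR 4.0.16), median-of-ratios factors (DESeq2 1.42.0), CPM, an added value of 0.1, a minimum RPKM of 5 or none, 1.5-fold and 4-fold thresholds, and loci with 1 listed model. TMM shifted log2 read ratios by -0.14 and median-of-ratios scaling by -0.11.

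Members, gene lists and rules were chosen with earlier results of these data known. All members were named, as was each called gene of a wider list or, if none, the one with the most reads. Names that neither the files nor the RefSeq table give were not used. Sequences are from RefSeq TAIR10.1. In 11392 of 11480 loci with 1 listed model and 1 RefSeq transcript, the RefSeq coding range lay inside the deposited TAIR10 range on the same strand.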

Additional observations from a re-analysis of the deposited data

How the results depend on the processing

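With 1 library per genotype no alternative replaces a replicate, and genes with 1 to 3 WT reads limit what the depth can show. No paired analysis was possible because each genotype had 1 library. Only 4 settings can change a gene's log2 ratio (the pseudocount, both scalings and CPM), and under them the 32 values of the 8 listed flavonoid genes ranged from 0.93 to 3.30. The number of flavonoid genes called, 7, became 3 (CHS, TT19 and MYB111) at the 4-fold threshold, 6 under both scalings, where MYB12 was lost, and 5 with an RPKM floor of 5, where DFR and MYB12 were not measured. Their median log2 ratio ranged from 1.66 with no floor to 2.58 with a pseudocount of 0.1. The number of genes called in the wider lists, 6, became 14 at 1.5-fold and 0 at 4-fold. Over all measured loci the median log2 ratio, 0.12, was -0.0085 under TMM scaling. The ratio of late to early genes was 4.07 without CHS and 3.15 from medians of single genes, both inside its interval.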

Other observations

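Of the flavonol synthase family, the gene with the main known activity was not the most strongly read. FLS3 had 17.4 RPKM in crwn1 crwn2 and 12.9 RPKM in WT, above FLS1 at 1.70 RPKM in crwn1 crwn2 and 0.358 RPKM in WT. FLS2 had 12 reads in crwn1 crwn2 and 5 in WT, FLS4 had 8 in crwn1 crwn2 and 5 in WT, and FLS5 had 9 in crwn1 crwn2 and 15 in WT, with none called. FLS1, FLS2 and FLS5 have 2 RefSeq transcripts each, so their levels may be too low, and relatives this close can also share or exchange reads.

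Of the 4 kelch-repeat F-box genes among the genes that repress the pathway or turn over its enzymes, 3 had log2 ratios below 0 and 1 above, with none called. KFB20 had 248 reads in crwn1 crwn2 and 403 in WT (read ratio 0.585, 0.497 to 0.687), and KFB50 had 340 in crwn1 crwn2 and 220 in WT (1.47, 1.24 to 1.75). KFB01 had 78 reads in crwn1 crwn2 and 88 in WT (0.842, 0.613 to 1.16). These 3 are known to mark phenylalanine ammonia-lyase for degradation. AT1G23390, annotated in the files as a kelch-repeat F-box gene, had 245 reads in crwn1 crwn2 and 355 in WT (0.656, 0.555 to 0.774). None of the 4 reached the 2-fold rule. At read counts of this size an interval can exclude equality at a small ratio, and how often it does so over all measured loci was not counted.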
